A study of Mus musculus with 11 samples.

Results

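Lamin B1 contacts of 8 genes that mark the surface and matrix of oligodendrocyte precursor cells (OPC) were read from a DamID-seq map of the mouse genome. The genes were Pdgfra, Cspg4, Ptprz1, Lhfpl3, Tnr, Egfr, Vcan and Bcan. They were taken by symbol from the deposited score table, which held all 8 of them, each as 1 of 21534 gene regions. In DamID the bacterial DNA adenine methyltransferase Dam is fused to a protein of interest and methylates adenine in GATC sites of nearby DNA. The primary cells came from the brain cortex of C57BL/6 mice at postnatal day 7, titled WT in the labels, and received lentiviral Dam-LMNB1 or free Dam for 1 day. They were then cultured for 72 h either in OPC proliferation medium (PF) or in oligodendrocyte differentiation medium (T3). Scores were deposited for 3 Dam-Lmnb1 libraries in PF, numbered 8, 9 and 10, and for 3 in T3, numbered 18, 19 and 20. Per the file headers, each was scored against the pooled Dam libraries of the same medium, 2 in PF and 3 in T3. The groups thus share strain, age, tissue, the viral vector type and the culture time, and differ in the medium. Neither the promoter that drives Dam nor the animals or cultures behind a library are named in the labels. The p-values therefore rest on library-to-library spread alone, which may be technical.

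The nuclear lamina is a filament meshwork under the inner nuclear membrane, and chromatin in contact with it is typically gene-poor and weakly transcribed. OPC divide in response to platelet-derived growth factor, carry chondroitin sulfate proteoglycans on their surface and sit in a hyaluronan matrix. Many of these surface and matrix genes are known to be switched down as the cells become myelinating oligodendrocytes. DamID reads where a gene lies and not how much RNA it makes, so the markers do not check cell identity here. A score above 0 is read as more Dam-Lmnb1 than Dam methylation, that is, closer to the lamina. No source used here gives the log base of the score, so differences are in score units and never folds. Read depth is unknown. A score averages over the cells of a culture, so a shift in every cell and a shift in some of them cannot be told apart.

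The upstream sequences of 4 genes are shown because these genes mark the ends of the results. Lhfpl3 had the largest rise in score, Tnr the largest fall, Ptprz1 the lowest PF score and Vcan the highest. Each run is the 250 bases before the transcription start in RefSeq (GRCm38.p6), 5′ to 3′ on the gene's strand, and capitals mark GATC, the site that Dam methylates. The windows are chr5:22745804-22746053 (plus strand) for Lhfpl3, chr1:159523519-159523768 (plus) for Tnr, chr6:22875252-22875501 (plus) for Ptprz1 and chr13:89742513-89742762 (minus) for Vcan.
Lhfpl3: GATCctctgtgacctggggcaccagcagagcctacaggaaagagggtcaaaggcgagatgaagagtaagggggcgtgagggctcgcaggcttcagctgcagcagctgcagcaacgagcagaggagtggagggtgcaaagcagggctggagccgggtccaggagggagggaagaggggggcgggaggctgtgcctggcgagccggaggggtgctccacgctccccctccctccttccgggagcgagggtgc
Tnr: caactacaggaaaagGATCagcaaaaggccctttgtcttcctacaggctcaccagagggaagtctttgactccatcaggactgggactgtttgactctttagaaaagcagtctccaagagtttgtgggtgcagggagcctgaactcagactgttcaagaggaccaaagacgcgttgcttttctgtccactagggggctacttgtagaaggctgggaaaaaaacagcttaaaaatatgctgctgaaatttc
Ptprz1: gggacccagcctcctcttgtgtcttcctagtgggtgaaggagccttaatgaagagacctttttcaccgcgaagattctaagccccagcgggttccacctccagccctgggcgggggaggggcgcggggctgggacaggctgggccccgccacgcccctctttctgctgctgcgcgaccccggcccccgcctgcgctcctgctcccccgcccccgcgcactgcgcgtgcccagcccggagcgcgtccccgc
Vcan: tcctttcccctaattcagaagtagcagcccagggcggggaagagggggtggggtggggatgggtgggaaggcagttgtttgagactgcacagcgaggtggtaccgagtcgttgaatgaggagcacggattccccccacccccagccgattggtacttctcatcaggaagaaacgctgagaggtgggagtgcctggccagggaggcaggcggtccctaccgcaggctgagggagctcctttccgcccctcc

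GATC reads the same on both strands. It was found once in the Lhfpl3 and Tnr windows, 2 times in that of Egfr, and not in those of Ptprz1, Vcan, Bcan, Pdgfra and Cspg4. Of all 32851 promoter windows of that length, 41.9% held it. All 8 windows lay inside the scored region of their gene. The scored regions began 5.16 to 10.0 kb before the RefSeq gene and ended about 2 kb behind it, except that of Tnr, which ended inside the gene. These windows are a small part of a region, and exons, introns and flanks share 1 score.

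In PF, 7 of the 8 genes lay below 0 (limma, Benjamini-Hochberg adjusted p under 0.05), as did 71.4% of all regions. The exception was Vcan, which lay above 0 together with 25.5% of the regions. The order from high to low was Vcan, Egfr, Lhfpl3, Tnr, Bcan, Pdgfra, Cspg4 and Ptprz1. The 3 libraries of neighbours in that order overlapped only for Tnr and Bcan, whose means differed by 0.096. The median of the 8 genes was −1.70, against −1.54 over all regions. Of the 8 genes, 6 lay in the range from −4 to −1 that held 60.4% of the regions, and Egfr and Vcan in the range from −1 to 0.5 that held 17.7%. None reached the range above 0.5 that held 21.8%.

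**Figure D1:**
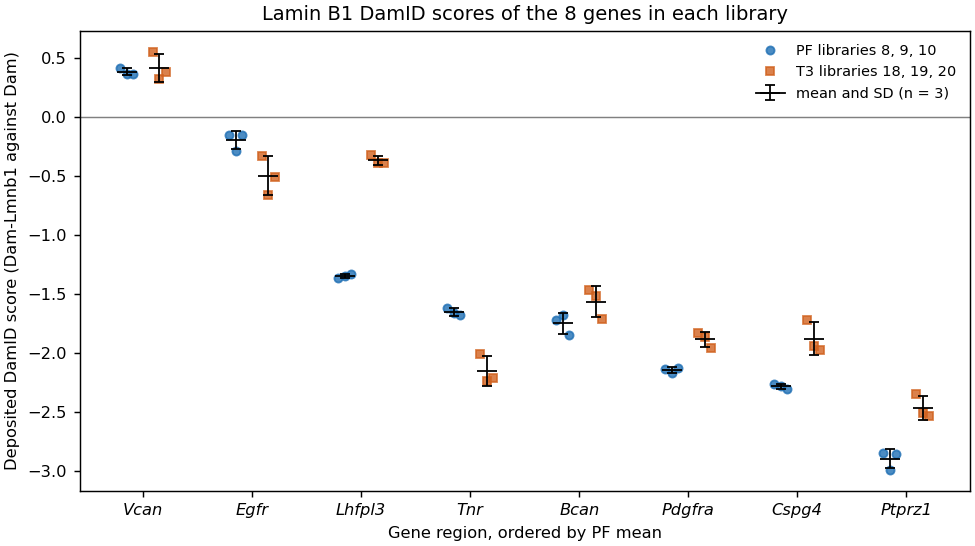
Deposited DamID score (y axis, score units) of the 8 gene regions (x axis, ordered by PF mean) in each PF library (circles) and T3 library (squares), with the mean and SD of 3 libraries in black. Vcan is the only gene above 0, and Lhfpl3 shows the widest gap between the media, from −1.35 to −0.36.

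The growth factor receptor genes lay far apart. Pdgfra encodes the receptor for PDGF-AA, the main mitogen of OPC (chr5:75146165-75200204). It scored −2.14, −2.17 and −2.13 in PF libraries 8, 9 and 10, and −1.83, −1.86 and −1.96 in T3 libraries 18, 19 and 20. All T3 libraries lay above all PF libraries, both well below 0. Egfr, the receptor for epidermal growth factor and its relatives (chr11:16742202-16915907), scored −0.15, −0.29 and −0.15 in PF and −0.33, −0.66 and −0.51 in T3. It was the gene closest to 0 in PF, higher than 70.8% of the regions, and its T3 libraries lay below its PF libraries.

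Ptprz1 and Cspg4 encode the membrane proteoglycans of the set. Ptprz1 is a receptor tyrosine phosphatase that carries chondroitin sulfate, and its shed ectodomain is the matrix protein phosphacan (chr6:22865501-23054916). It scored −2.85, −2.99 and −2.85 in PF and −2.35, −2.51 and −2.54 in T3. Only 1.09% of all regions had a lower PF mean. Cspg4 encodes NG2, the antigen by which OPC are often stained (chr9:56855103-56901870). It scored −2.26, −2.28 and −2.31 in PF and −1.72, −1.94 and −1.98 in T3, again without overlap between the media. Its region shares 6.86 kb with that of Odf3l1, and how reads in the shared stretch entered either score is not stated. No other of the 8 regions overlapped another gene.

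Among the matrix genes, the hyaluronan-binding lecticans Vcan (versican) and Bcan (brevican) stood on opposite sides of 0. Vcan (chr13:89653309-89752512) scored 0.42, 0.37 and 0.37 in PF and 0.55, 0.32 and 0.38 in T3, and the media overlapped. Bcan (chr3:87985530-88010356) scored −1.72, −1.68 and −1.85 in PF and −1.47, −1.52 and −1.71 in T3, where PF library 9 and T3 library 20 overlapped. Tnr encodes tenascin-R, a glycoprotein that binds and crosslinks lecticans (chr1:159513768-159926922). It scored −1.62, −1.66 and −1.68 in PF and −2.01, −2.24 and −2.21 in T3, so each T3 library lay below each PF library.

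Lhfpl3 encodes a four-pass membrane protein of the LHFPL family whose RNA is enriched in OPC (chr5:22736192-23277597). It scored −1.36, −1.35 and −1.33 in PF and −0.32, −0.38 and −0.39 in T3. The PF libraries spanned less than the gap to T3, and the T3 libraries came close to 0 without crossing it. At 541 kb its region was the widest of the set, followed by Tnr (413 kb), Ptprz1 (189 kb), Egfr (174 kb), Vcan (99.2 kb), Pdgfra (54.0 kb), Cspg4 (46.8 kb) and Bcan (24.8 kb).

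The study compared the media to ask how lamin B1 contacts change as OPC are led to differentiate. Of the 8 genes, 4 had a higher score in T3 (Lhfpl3, Ptprz1, Cspg4 and Pdgfra), 2 a lower one (Tnr and Egfr), and Bcan and Vcan did not pass the test (limma, adjusted p under 0.05). Over all regions 23.0% were higher and 10.9% lower by the same rule. The libraries of the media did not overlap for 6 of the 8 genes and for 48.9% of all regions. The higher calls depended on the scaling of the libraries: over all regions 4963 were higher and 2345 lower on the deposited scores (67.9% higher), and 3330 and 3261 (50.5%) after a common mean and SD was imposed on the libraries. The median difference was 0.22 over the 8 genes and 0.097 over all regions.

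Lhfpl3 rose by 0.98 ± 0.07 (SE, 95% interval 0.83 to 1.14, limma adjusted p = 9.2e-05), from −1.35 ± 0.015 to −0.36 ± 0.04 (SD, n = 3 each). Of all regions, 99.9% had a smaller or more negative difference. Among the 2470 regions at least 100 kb wide, a width chosen after the data were seen, 5 had a larger one. Lhfpl3 was also the only gene of the set called in the authors' deposited table, with an adjusted p of 0.0241; that table calls 1.91% of the regions higher and 1.23% lower.

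Tnr fell by 0.50 ± 0.09 (SE, limma adjusted p = 3.98e-03), from −1.65 ± 0.03 to −2.15 ± 0.13 (SD, n = 3 each), and 3.09% of the regions had a more negative difference. Ptprz1 rose by 0.43 ± 0.09 (adjusted p = 7.33e-03) and Cspg4 by 0.41 ± 0.09 (adjusted p = 0.0103). The rise was smaller but still called under a common mean and SD (0.28 for both genes) and after quantile normalization (0.29 and 0.25). The calls of Tnr, Ptprz1 and Cspg4 held when any 1 library was left out. With each region tested alone, with unequal variances and no information shared between regions, they were lost, and of the 8 genes only Lhfpl3 passed.

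The calls of both growth factor receptor genes rested on narrower ground. Pdgfra rose by 0.26 ± 0.08 (SE, limma adjusted p = 0.0333). The adjusted p was 0.0749 without PF library 8, 0.0992 without PF library 9, 0.0726 without PF library 10, 0.0593 without T3 library 18 and 0.0870 without T3 library 19. With the libraries centred on a common median it was 0.0702. The difference was 0.13 (adjusted p = 0.162) under a common mean and SD and 0.10 (0.256) after quantile normalization. Egfr fell by 0.30 ± 0.09 (SE, adjusted p = 0.0337), with an adjusted p of 0.0914 without PF library 8, 0.0940 without PF library 10, 0.0977 without T3 library 19 and 0.0800 without T3 library 20. Its position below 0 in PF (adjusted p = 0.0163) was not called without PF library 9 (adjusted p = 0.112).

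The difference of Bcan was 0.19 (95% interval −0.025 to 0.40, limma adjusted p = 0.151) and that of Vcan 0.033 (−0.14 to 0.21, adjusted p = 0.759). For Bcan it was 0.076 under a common mean and SD, 0.11 with a common median and 0.073 after quantile normalization. The sign for Vcan turned with the scaling and without T3 library 18 (−0.034), so no direction is given for it. In T3, the order was Vcan, Lhfpl3, Egfr, Bcan, Cspg4, Pdgfra, Tnr and Ptprz1, with overlap between Lhfpl3 and Egfr and between Cspg4 and Pdgfra. Again 7 of the 8 genes lay below 0, as did 70.9% of all regions, and Vcan lay above 0 with 25.9% of the regions. No gene of the set crossed 0 between the media, and the share of all regions that did was not counted.

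**Figure D2:**
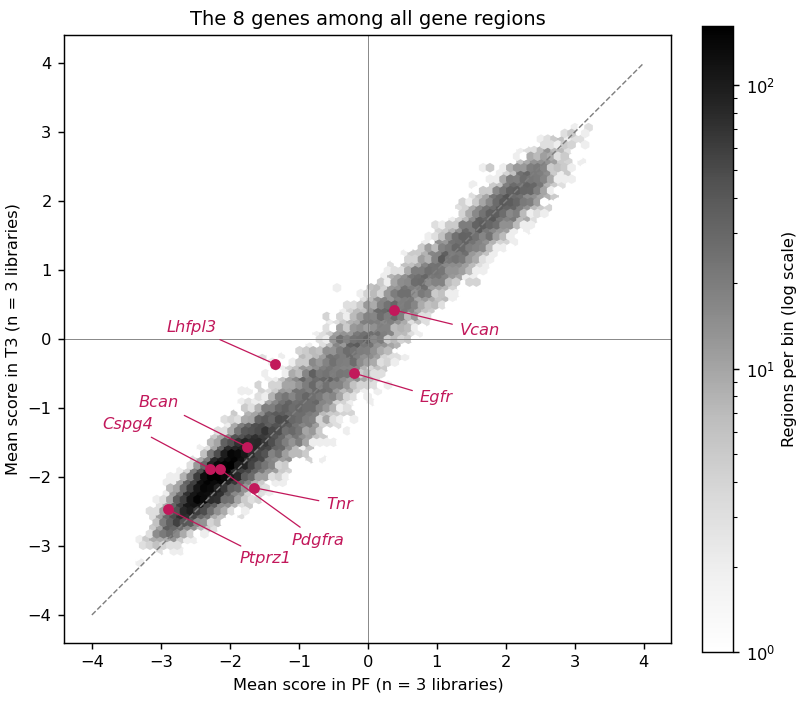
Mean score in T3 (y axis) against mean score in PF (x axis) for all 21534 regions (grey, darker for more regions per bin on a log scale), with the 8 genes in colour and the line of equal scores dashed. Lhfpl3 lies at the upper edge of the cloud at its PF score, and Tnr lies below the dashed line.

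Each gene was then set against its neighbourhood. A local score was taken in every library as the score of a region minus the median of up to 5 regions on each side within 1 Mb that did not overlap it. Flanking regions could overlap each other and were still counted separately. The same limma fit was run on the local scores of 21221 regions, of which 7.51% were higher and 7.75% lower in T3. Of the 8 genes, 1 was higher (Lhfpl3), none was lower, and 7 did not pass at an adjusted p under 0.05. The unadjusted limma p was under 0.05 for Lhfpl3 and Vcan, higher in T3, and for Ptprz1 and Egfr, lower. The share of all regions at that threshold was not counted, so this is not read as a result about the set. With each region tested alone, with unequal variances, no gene of the set passed.

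Lhfpl3 lay above the median of its neighbours in both media, and more so in T3. Its local score was 0.75, 0.84 and 0.78 in PF and 1.58, 1.39 and 1.62 in T3, a difference of 0.74 ± 0.09 (SE, limma adjusted p = 1.33e-03). The 10 flanking regions had a median of −2.14 in PF and −1.91 in T3. The 3 nearest regions on one side had the highest scores of the 10. They were Slc26a5, a member of an anion transporter family, at −0.70 in PF and −0.13 in T3, Orc5, a subunit of the origin recognition complex, at −0.92 and −0.51, and Reln, the gene of the migration signal reelin, at −0.22 and −0.050. On the other side Kmt2e, a chromatin regulator gene, had −2.94 and −2.79. The other flanking regions all lay lower than Lhfpl3 in both media. Of the 10 flanking regions 4 rose and 6 did not pass.

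Ptprz1 lay lower than all 9 of its flanking regions in both media. Its local score was −2.10, −2.40 and −2.14 in PF and −2.46, −2.59 and −2.60 in T3, and only 0.712% of regions had a lower local score in PF. The next region, Aass, a lysine degradation gene 15.3 kb away, went up from −0.68 ± 0.08 to 0.083 ± 0.02 (SD, n = 3; adjusted p = 2.85e-04 by limma). On the other side Fam3c, which encodes a secreted protein, had −2.03 in PF and −1.80 in T3 and did not pass. Cadps2, a gene of vesicle release beyond Aass, stood at 1.56 in PF. Of the 9 flanking regions 6 rose and 3 did not pass, and their median moved from −0.68 in PF to 0.083 in T3. That median was the score of Aass in both media, and Aass had the largest rise of the 9. The median of the 9 differences was 0.32, below the 0.43 by which Ptprz1 rose. Whether Ptprz1 fell or rose relative to its neighbours thus depends on how they are summarized. The flanking regions above 0 in PF are not separate stretches of DNA, as all lie within that of Cadps2. The local difference of Ptprz1 was −0.33 (95% interval −0.59 to −0.069, adjusted p = 0.0826). This local difference passed the test after a common mean and SD was imposed (adjusted p = 0.0252) and after quantile normalization (0.0239). It was −0.21 (adjusted p = 0.225) with up to 10 flanking regions a side, and the adjusted p was 0.215 without PF library 8 and 0.207 without PF library 10.

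Tnr too lay below the median of its neighbours, with a local score of −1.35, −1.26 and −1.36 in PF and −1.39, −1.48 and −1.37 in T3. Of 9 flanking regions 5 fell, 1 rose and 3 did not pass, and the local difference of Tnr was −0.089 (−0.30 to 0.13, adjusted p = 0.569). Next to it, 156 kb away, lies Tnn, the gene of another tenascin. Tnn fell from −0.39 ± 0.06 to −0.78 ± 0.06 (SD, n = 3, limma adjusted p = 4.64e-03), a difference of −0.39. On the other side the nearest region, the ubiquitin ligase gene Rfwd2, fell from −0.33 to −0.68 (adjusted p = 7.64e-03), and farther out Astn1, a neuronal adhesion gene, fell from −0.89 to −1.46. Another of the falling regions lies inside that of Rfwd2. The region that rose lies inside a larger flanking region that did not pass.

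Pdgfra scored like its surroundings, with a local mean of −0.17 in PF and −0.096 in T3. It lies near 2 other receptor tyrosine kinase genes, Kit (365 kb away) and Kdr (731 kb). Kit rose from −0.86 ± 0.12 to −0.46 ± 0.13 and Kdr from −0.75 ± 0.02 to −0.40 ± 0.05 (SD, n = 3), with limma adjusted p-values of 0.0108 and 5.17e-03, both at higher scores than Pdgfra. Of its 9 flanking regions 6 rose and 3 did not pass, Gsx2, a homeobox gene, among them at −1.92 and −2.18. The local difference of Pdgfra was 0.078 (−0.13 to 0.28, adjusted p = 0.606).

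Cspg4 and Bcan lay in stretches where every flanking region was below 0 in both media, as did Pdgfra and Lhfpl3. Cspg4 had a local mean of 0.27 in PF and 0.37 in T3, and Snx33, a sorting nexin gene 13.3 kb away, stood at −2.64 and −2.06. Lingo1, which encodes an inhibitor of oligodendrocyte differentiation, stood at −2.22 and −1.88 on the other side. Bcan had a local mean of 0.65 in PF and 0.51 in T3, and Nes, the gene of the precursor filament nestin 3.08 kb away, stood at −2.12 and −2.11. Around Egfr none of the 7 flanking regions passed the test, the nearest being Sec61g at −0.30 and −0.23 and Eldr at −0.49 and −0.59, and the local difference of Egfr was −0.26 (−0.48 to −0.041, adjusted p = 0.101). Vcan had 4 flanking regions within reach, from −0.30 to 2.19 in PF, with Hapln1 nearest on one side and the DNA repair gene Xrcc4 (1.01 and 0.84) on the other. Vcan had a local difference of 0.27 (0.058 to 0.49, adjusted p = 0.0810), which was 0.089 (adjusted p = 0.481) with up to 10 flanking regions a side. Its own score differed by 0.033, while the median of its flanking regions went from 0.56 to 0.30. Of these 4 only Hapln1 passed, with a lower score in T3, and the median of their differences was −0.055.

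**Figure D3:**
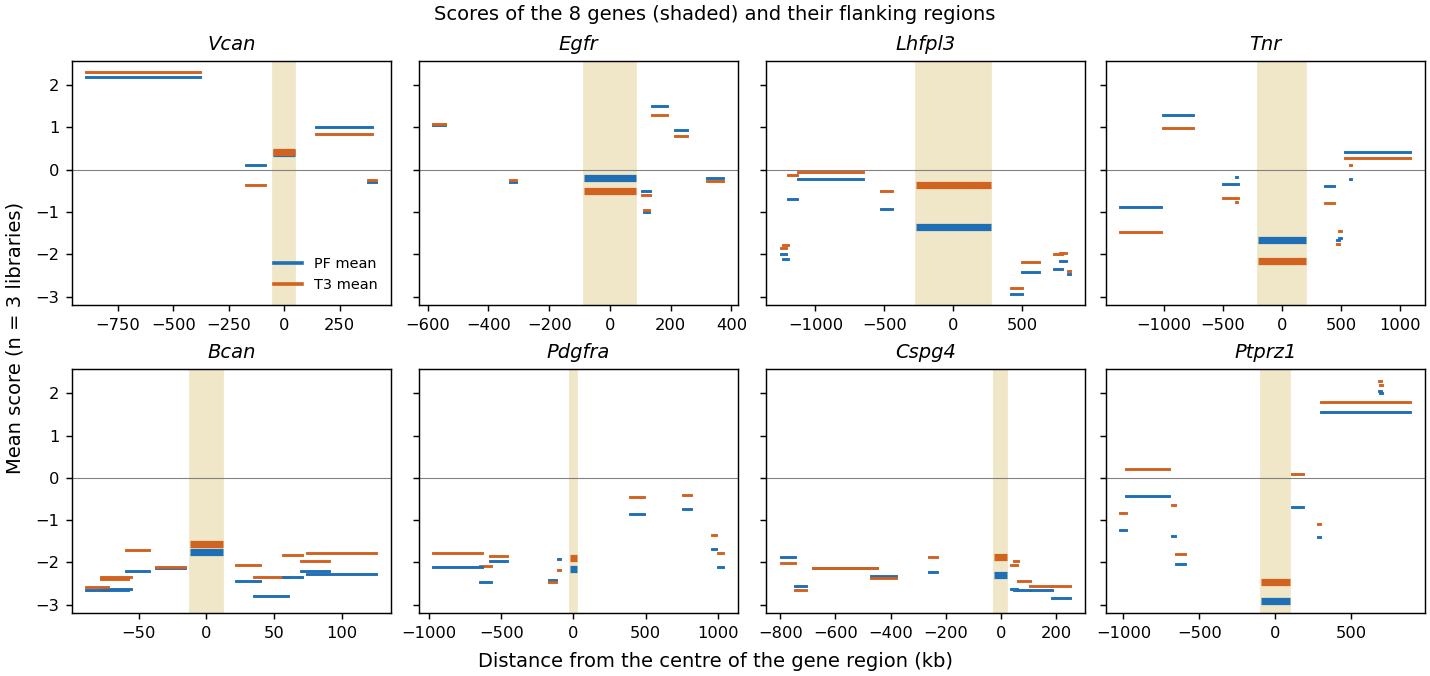
Mean score (y axis, n = 3 libraries) in PF and T3 of each of the 8 genes (thick lines, shaded) and of its flanking regions (thin lines), drawn over their extent as distance from the centre of the gene region (x axis, kb). Ptprz1 lies below all of its 9 flanking regions in both media, and the highest flanking regions of Lhfpl3 all lie on one side of it.

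**Figure D4:**
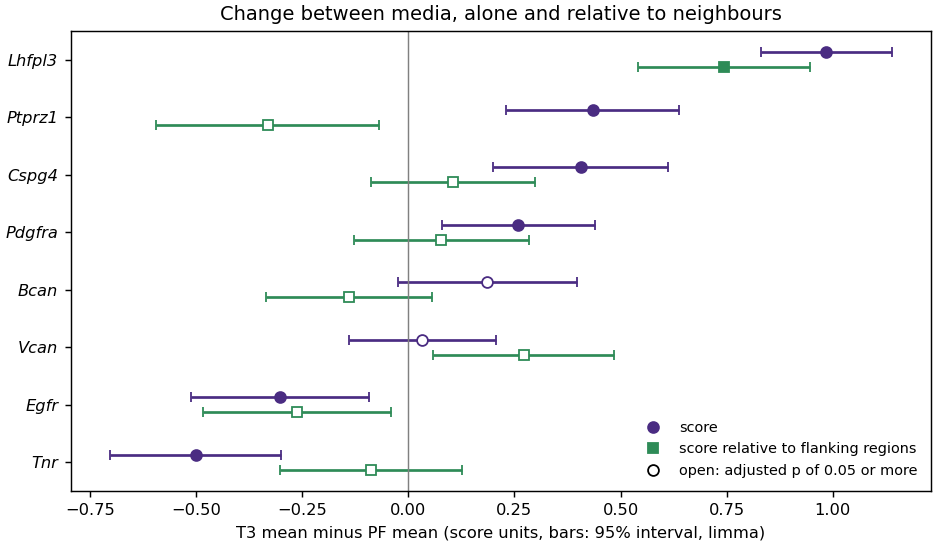
Difference between T3 and PF (x axis, score units, bars are 95% intervals from limma) of each gene's score (circles) and of its score relative to the flanking regions (squares), filled where the adjusted p was under 0.05. For Lhfpl3 both are filled, 0.98 and 0.74, and the other 5 filled circles, those of Tnr, Egfr, Ptprz1, Cspg4 and Pdgfra, have open squares.

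In mammals each lectican gene has a link protein gene, whose product ties the lectican to hyaluronan, as its neighbour. The pairs were chosen for comparison after the data were seen. In these data the 4 pairs lay side by side: the Vcan and Hapln1 regions 39.5 kb apart, those of Bcan and Hapln2 9.39 kb apart, and those of Acan and Hapln3 and of Ncan and Hapln4 overlapping. Hapln1 scored 0.16, 0.099 and 0.085 in PF and −0.16, −0.40 and −0.51 in T3, and fell by 0.47 (limma adjusted p = 5.87e-03). Every PF library was above 0 and every T3 library below it, but the PF mean did not pass the test against 0 (adjusted p = 0.117; T3 3.81e-04). Vcan minus Hapln1 was 0.27 on average in PF and 0.78 in T3, with no overlap between the libraries.

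Hapln2 rose by 0.40, from −2.45 ± 0.07 to −2.05 ± 0.04 (SD, n = 3; adjusted p = 6.81e-03 by limma), beside Bcan, which did not pass. Bcan minus Hapln2 was 0.70 in PF and 0.49 in T3, also without overlap. The change in the difference within a pair gave p = 0.1 for both pairs by an exact permutation test over libraries (two-sided, 3 against 3), the smallest p that this design allows, and an adjusted p of 0.2 over the 4 pairs. The change was −0.19 for Acan minus Hapln3 (exact p = 0.2, adjusted 0.267), about as much as the −0.21 of Bcan minus Hapln2, and −0.13 for Ncan minus Hapln4 (exact p = 0.7, adjusted 0.7). The smallest possible p of 0.1 lies above the threshold used for the other tests, so none of the 4 changes could pass. This exact test therefore does not decide whether the difference within any pair changed. Acan (aggrecan) had −1.50 and −1.45 and Ncan (neurocan) −2.36 and −2.26 in PF and T3. Neither gene passed the limma test between the media, nor did Hapln3 and Hapln4.

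Related genes were described by lists. Beside each, over all regions 25.5% lay above 0 and 71.4% below in PF, and 23.0% rose and 10.9% fell. In the PDGF and EGF families, Pdgfra and Egfr left out, 10 of 19 ligand and receptor genes lay above 0 in PF and 9 below, with a median PF score of 0.63 against −1.54 over all regions. From PF to T3, 5 of the 19 rose, 1 fell and 13 did not pass, with a median difference of 0.14 beside 0.097 over all regions. The neuregulin gene Nrg1 rose from 0.90 ± 0.007 to 1.36 ± 0.07 (SD, n = 3), and its receptor gene Erbb4 from 1.01 ± 0.03 to 1.40 ± 0.04. The EGF receptor ligand gene Btc fell from 1.76 ± 0.008 to 1.51 ± 0.02. Btc and the ligand genes Areg, Ereg and Epgn, named after their values were seen, lie close together within chr5:91017516-91412994. All of them were above 0 in PF, and Areg and Ereg are among the 5 rises, so these counts are not all from separate loci. Nrg3, another neuregulin, had the highest PF score (1.96) and the ligand gene Hbegf the lowest (−2.48).

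Of 26 lectican matrix genes and binding partners, 4 lay above 0 and 21 below in PF (median −1.51), and 6 rose, 4 fell and 16 did not pass. The hyaluronan synthase gene Has2 rose from 0.13 ± 0.09 to 0.61 ± 0.08 (SD, n = 3). The axonal adhesion gene Nrcam fell from −0.33 ± 0.05 to −0.96 ± 0.05 and the hyaluronan receptor gene Cd44 from −1.36 ± 0.04 to −1.88 ± 0.14. Gpc5, a glypican gene, was highest in PF (1.92) and the adhesion gene Ncam1 lowest (−2.77).

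Of 12 other receptor phosphatase genes, 2 rose, 3 fell and 7 did not pass, with a median difference of 0.017. Ptprt fell from −0.20 ± 0.03 to −1.17 ± 0.05 (SD, n = 3, limma adjusted p = 9.2e-05), a difference of −0.97, and Ptprn2 from −0.021 ± 0.009 to −0.50 ± 0.09. Ptprf rose by 0.38 and Ptprs, a receptor of chondroitin sulfate proteoglycans, by 0.34. Ptprg, the closest relative of Ptprz1, had −1.63 ± 0.04 in PF and −1.50 ± 0.06 in T3 and did not pass. In PF Ptprd was highest at 1.66 and Ptpra lowest at −2.68.

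Of the 5 other LHFPL genes, 1 rose, 1 fell and 3 did not pass. Lhfpl5, a subunit gene of the hair cell transduction channel, rose from −2.27 ± 0.10 to −1.53 ± 0.15 (SD, n = 3), and Lhfpl2 fell from −1.44 ± 0.08 to −1.75 ± 0.07. Lhfpl1 had the highest PF score (1.35). Of 21 genes of chondroitin sulfate synthesis, 3 lay above 0 and 17 below in PF (median −1.74), and 7 rose, 2 fell and 12 did not pass. The polymerizing factor gene Chpf2 rose from −2.66 ± 0.004 to −1.73 ± 0.14 and the linker galactosyltransferase gene B4galt7 by 0.49, while Csgalnact1 fell by 0.37 and the sulfotransferase gene Chst15 by 0.32. Chsy3 was highest in PF (1.46) and B3gat3 lowest (−2.86).

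Of 26 other OPC genes, 2 lay above 0 and 23 below in PF (median −1.94), and 8 rose, 2 fell and 16 did not pass, with a median difference of 0.12. Sox10, the lineage transcription factor gene, rose by 0.67 and the protocadherin gene Pcdh15 by 0.61, from 1.02 ± 0.01 to 1.62 ± 0.04 (SD, n = 3). Dscam fell by 0.37 and Sox6 by 0.32. Luzp2 was highest in PF (1.30) and Xylt1 lowest (−2.62). Of 19 myelin genes, 3 rose, 4 fell and 12 did not pass, with a median difference of 0.088. Mal, which encodes a membrane raft protein, fell by 0.47, while the regulator gene Myrf rose by 0.33 and the connexin gene Gjb1 by 0.27. Ermn was highest in PF (1.30) and Nfasc lowest (−2.32). No list was tested against the other genes, and 3 genes (Cspg5, Ncan and Xylt1) stand in 2 lists each.

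**Figure D5:**
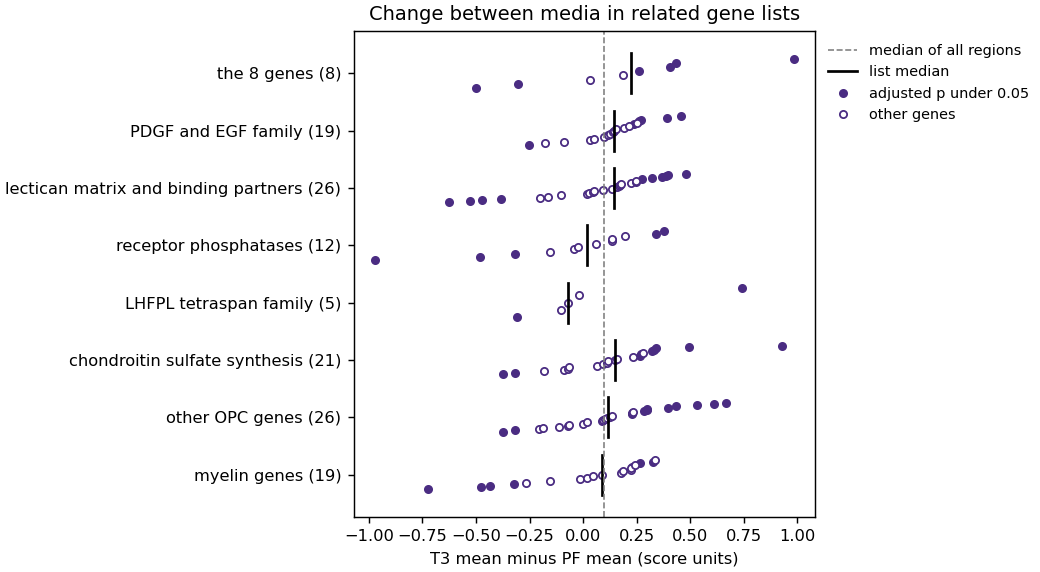
Difference between T3 and PF (x axis, score units) of every gene of each list (y axis, number of genes in brackets), filled where the limma adjusted p was under 0.05, with the list median as a black bar and the median of all regions, 0.097, as a dashed line. Each list holds both filled points above 0 and filled points below 0.

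The number of genes with like scores over the 6 libraries differed widely among the 8 genes. Of 19108 other protein-coding genes, 2462 lay within a Euclidean distance of 0.5 from Pdgfra, 1914 from Cspg4, 1438 from Bcan, 503 from Ptprz1, 460 from Vcan, 269 from Tnr and 263 from Egfr, but 20 from Lhfpl3. The nearest were Cep164 and Ormdl3 to Pdgfra, Atad2 and Slc25a51 to Cspg4, Anpep and Ybx2 to Bcan, and Ska2 and D17Wsu92e to Ptprz1. To Vcan they were Exoc2 and Dcbld1, to Tnr Fam234b and Slc1a2, and to Egfr Slc35a3 and Trpv1. Nearest to Lhfpl3 were Ect2 (−1.40 in PF and −0.34 in T3, distance 0.19) and G2e3 (−1.38 and −0.47, distance 0.25).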

How the data were processed

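The authors deposited a table with 1 DamID score per gene region and Dam-Lmnb1 library, 21534 regions by 6 libraries, along with their own p-values and adjusted p-values between the media. Each score sets a library against the Dam libraries pooled from the same medium, per the file headers. The tools BWA 0.7.17 and cutadapt 1.9.1 and the build mm10 are named in the submitters' processing notes. The step from reads to scores is not stated in them. Depth is unknown, and all scores of a medium share 1 Dam denominator, so Dam library variation does not enter the p-values. The Dam libraries on their own are not analysed here. Coordinates are those of the deposited table.

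limma 3.58.1 (R 4.3.3) was fitted to the scores as deposited of all regions, with 1 mean per medium and a variance trend, two-sided, with Benjamini-Hochberg adjustment over all regions at 0.05. No filter or further transformation was used. Local scores needed at least 3 flanking regions. The fit was tested on simulated scores. It did not meet the first criterion for recovery of true differences, which was then replaced by criteria for bias and false calls, and it missed nearly all small differences, so genes that did not pass may have changed. Far fewer regions were changed in the simulation than were called in the data, and no library-wide shift was simulated. The simulation therefore does not show how many calls or misses are right here. Gene types came from a RefSeq table (GRCm38.p6), and the wider region was used for the gene with more than 1 (Xylt1). Named were all 8 genes, the next region on each side where described, from each list up to 2 largest rises and falls and both ends in PF, and the 2 genes most alike; further neighbours (Reln, Slc26a5, Cadps2, Astn1, Kdr), Ptprg, Acan and Ncan were chosen after their values were seen, as were the score ranges, widths, pairs and printed promoters. The values of 1 gene that this rule names are not reported here. The members and lists were chosen with earlier results of these data known. Alternatives were 3 scalings, no variance trend, an unequal-variance test per region, protein-coding genes only, leaving out each library, and 3 or 10 flanking regions a side (10 within 2 Mb).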

Additional observations from a re-analysis of the deposited data

How the results depend on the processing

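In T3, 7 of the 8 genes lay below 0 under every alternative run. In PF the number was 6 with the unequal-variance test and without PF library 9, and 7 under every other alternative. With the unequal-variance test of each region alone, 1 gene was higher in T3 (Lhfpl3), 0 were lower and 0 changed relative to the flanking regions, against 4, 2 and 1 with limma; over all regions that test called 566 higher and 359 lower, and 14 and 27 relative to the flanking regions. Relative to the flanking regions, 2 genes changed (Lhfpl3 and Ptprz1) under a common mean and SD and after quantile normalization. Leaving out 1 library left 1 to 2 genes lower in T3, with Tnr called each time. Over all regions it left 3136 to 4132 higher and 1673 to 2552 lower, and relative to the flanking regions 815 to 1238 and 878 to 1318. The Vcan difference was −0.044 with a common median, −0.023 after quantile normalization and from −0.034 (without T3 library 18) to 0.081 (without T3 library 19) with 1 library left out. The Lhfpl3 difference ranged from 0.91 to 0.996 and was called under all 12 alternatives; that of Pdgfra was lost under 9 of 12 and that of Egfr under 5 of 12. The local differences of Pdgfra (0.032 to 0.18), Tnr (−0.19 to −0.055) and Cspg4 (0.060 to 0.14) were not called under any alternative. Where a call was lost without a library, fewer libraries entered the fit; the cause of the other losses was not tested. No paired analysis was possible from the labels, as the PF and T3 libraries share no replicate numbers. Whether any of them came from the same animals is unknown.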

Other observations

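T3 library 18 had the highest mean and median score over all regions of the 6 libraries. Its mean was −0.79, against −0.88 in T3 library 19 and −0.87 in T3 library 20, and its SD over regions was the smallest at 1.46. It also had the highest T3 score in each of the 8 genes. That count was not taken over all regions and is not read as particular to these genes. Without T3 library 18, Lhfpl3, Ptprz1, Cspg4, Tnr and Egfr were still called, and Pdgfra was not (limma adjusted p = 0.0593).

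Among all regions 4963 were higher and 2345 lower in T3, while among the 2470 regions at least 100 kb wide 468 (18.9%) were higher and 508 (20.6%) lower, with a median difference of 0.013. Of the 8 genes 4 are that wide, and they hold both falls (Tnr and Egfr) and the 2 largest rises (Lhfpl3 and Ptprz1). The width was chosen after the data were seen, and its part in the results was not tested.

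Ptprt and Lhfpl3 changed by nearly the same amount in opposite directions, −0.97 and 0.98, and both lay below 0 in all 6 libraries. Aspa, the gene of the enzyme that cleaves N-acetylaspartate, chosen from the myelin list after its values were seen, lay above 0 in PF and below 0 in T3 (limma adjusted p = 0.0148 and 4.05e-03). It scored 0.17, 0.14 and 0.26 in PF and −0.12, −0.18 and −0.42 in T3, a fall between the media with an adjusted p of 7.22e-03.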
